A study of Mus musculus with 3 samples.

Results

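The 10 genes described here are the Runx transcription factors (*Runx1*, *Runx2*, *Runx3*), their partner *Cbfb*, the osteogenic regulators *Sp7* and *Atf4*, and 4 genes of bone matrix and mineral (*Alpl*, *Spp1*, *Ibsp*, *Sparc*), taken by gene name from the 55401 genes counted. The maxillary process, the embryonic upper jaw, was dissected at E10.5 from *wnt1cre; Rosa26Dlx2/-* embryos for bulk RNA-Seq. In these embryos Cre under *Wnt1* control removes a stop cassette from a *CAG*-driven, Flag-tagged *Dlx2* at *Rosa26*, so that *Dlx2* is overexpressed (OE) in cells derived from the neural crest and not in the epithelium, blood or endothelium of the same tissue. There were 3 OE libraries, replicates 1, 2 and 3, from independent RNA samples of the same genotype, tissue and stage. The number of embryos behind each sample is not given in the sources used here. No wild-type library was used here. Each value is therefore from the OE side, and nothing below measures an effect of *Dlx2*.

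RUNX proteins bind DNA through a shared Runt domain, and CBFB, which does not touch DNA itself, raises the affinity of all of them. *Runx2* is required for osteoblast formation, *Sp7* (osterix) acts downstream of it, and ATF4 is a stress-responsive factor whose protein is set largely by translation and which osteoblasts need for amino acid supply and matrix production. The upper jaw forms by intramembranous ossification, in which neural crest mesenchyme turns into osteoblasts without a cartilage model, and at this stage the maxillary process holds no bone.

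The libraries differed from each other in ways that bear on single genes. Counts on genes ranged from 35351031 to 40057435. Levels are given as CPM, counts per 1000000 counts on genes after TMM scaling, and the members are ordered by CPM per kilobase of merged exons. Where genes of a list are said to lead it, this is by mean CPM, the measure by which they were picked, and gives no order per length. *Dlx2*, the targeted gene, was at 206 ± 26.7 CPM (SD, n = 3), which pools transgene and endogenous reads. *Xist*, the transcript of the inactive X, was at 671 CPM in replicate 1 and at 0.309 and 0.557 in replicates 2 and 3. Short genes (merged exons up to 2000 bp) had a median log2 level of 0.41 above the mean of the libraries in replicate 3, and genes over 8000 bp were at -0.37 there. All 9 facial mesenchyme markers reached 1 CPM in each library, with summed levels of 2360, 2474 and 3097 CPM in replicates 1, 2 and 3, led by *Barx1* (332, 409 and 928), *Prrx1* and *Twist1*. The ratio of the highest to the lowest library for *Barx1* was 2.80, or 1.46 once a smooth trend on length and GC content was taken out.

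Before the levels, the promoters of the Runx genes show a feature that these paralogs share at a distal start. The windows below (RefSeq, GRCm38.p6, 250 bases before to 50 after a start) are printed on the strand of the gene, with the RUNX core TGTGGT, here read on the other strand as ACCACA, in capitals. They are *Runx1* at chr16:92826025-92826324 (minus), *Runx2* at chr17:44814578-44814877 (minus), *Runx3* at chr4:135120395-135120694 (plus) and, for comparison with a matrix gene, *Spp1* at chr5:104434861-104435160 (plus).
Runx1: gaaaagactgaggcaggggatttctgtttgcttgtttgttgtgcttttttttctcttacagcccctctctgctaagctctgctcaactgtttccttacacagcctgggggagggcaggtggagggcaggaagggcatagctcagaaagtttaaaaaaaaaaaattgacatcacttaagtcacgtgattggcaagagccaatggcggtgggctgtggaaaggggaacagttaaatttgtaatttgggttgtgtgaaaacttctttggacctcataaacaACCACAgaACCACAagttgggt
Runx2: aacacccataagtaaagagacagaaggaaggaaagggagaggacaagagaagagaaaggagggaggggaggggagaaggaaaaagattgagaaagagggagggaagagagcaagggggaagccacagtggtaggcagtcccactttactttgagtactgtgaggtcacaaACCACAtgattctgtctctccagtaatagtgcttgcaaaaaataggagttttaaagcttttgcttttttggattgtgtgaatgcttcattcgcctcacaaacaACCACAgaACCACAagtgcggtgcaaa
Runx3: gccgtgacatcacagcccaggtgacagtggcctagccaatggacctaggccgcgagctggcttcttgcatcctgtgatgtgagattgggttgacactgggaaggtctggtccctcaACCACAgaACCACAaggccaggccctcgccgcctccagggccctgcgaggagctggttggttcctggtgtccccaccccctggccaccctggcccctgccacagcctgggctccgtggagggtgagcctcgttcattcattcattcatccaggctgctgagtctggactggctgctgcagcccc
Spp1: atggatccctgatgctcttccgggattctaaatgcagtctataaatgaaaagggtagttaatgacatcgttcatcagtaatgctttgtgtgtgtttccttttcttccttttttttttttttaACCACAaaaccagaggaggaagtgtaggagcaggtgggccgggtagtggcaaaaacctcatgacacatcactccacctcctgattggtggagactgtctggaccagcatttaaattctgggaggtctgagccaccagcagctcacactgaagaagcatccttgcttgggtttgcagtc
In all 3 Runx windows printed, 2 cores stand in tandem with 2 bases between them. The pair begins 29 bases after the start in *Runx1*, 24 after it in *Runx2* and 134 before it in *Runx3*. *Runx1* and *Runx3* each have a second window, at another start, that holds no RUNX core. The tandem form ACCACANNACCACA, chosen after these sequences were seen and searched on both strands, occurs in 7 of 32851 promoter windows, or 0.0213%. Besides the 3 Runx windows, 1 of the 7 belongs to *Gm16225*, whose window overlaps that of *Runx3* on the opposite strand. The single core TGTGGT, searched on both strands, occurs in 5506 windows (16.8%), and it was found in 5 of the 13 windows of 9 members, including those of *Spp1* and *Sparc*. The homeodomain core TAATTA occurs in 5.29% of windows and in 1 of the 13, the second start of *Spp1*. Counts per gene do not say which start a transcript used, and a match is not evidence of binding.

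Per kilobase, *Atf4* was highest, at 110 ± 34.6 CPM per kilobase, followed by *Cbfb* at 39.0 ± 10.2 and *Sparc*, a secreted collagen-binding glycoprotein, at 29.7 ± 1.80 (all SD, n = 3). *Alpl*, the tissue-nonspecific alkaline phosphatase that frees phosphate for mineral, was at 4.18 ± 0.573. *Spp1* (osteopontin), *Sp7*, *Ibsp* (bone sialoprotein), *Runx2* and *Runx1* lay between 0.311 and 1.27 in their means. *Runx3* was 22-fold below *Runx1*, its next neighbour, at 0.0142 ± 0.0110. This fold is rough, as it rests on 2, 1 and 5 counts of *Runx3* in replicates 1, 2 and 3.
The ranges over the libraries did not overlap between *Atf4* and *Cbfb*, between *Sparc* and *Alpl*, between *Alpl* and *Spp1*, or between *Runx1* and *Runx3*. *Cbfb* and *Sparc* overlapped, with *Cbfb* higher in 2 of 3 libraries, and so did each neighbouring pair from *Spp1* down to *Runx1*. *Ibsp* and *Runx2* had nearly the same mean, 0.447 and 0.444, with *Ibsp* higher in 1 of 3 libraries. Per kilobase of coding sequence, *Runx1* moved from rank 9 to rank 5, so the order among these low genes depends on the length used. In all, 8 of 10 members reached 1 CPM in each library, as did 45.3% of the 28442 genes with a count, and the exceptions were *Ibsp* and *Runx3*.

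**Figure D1:**
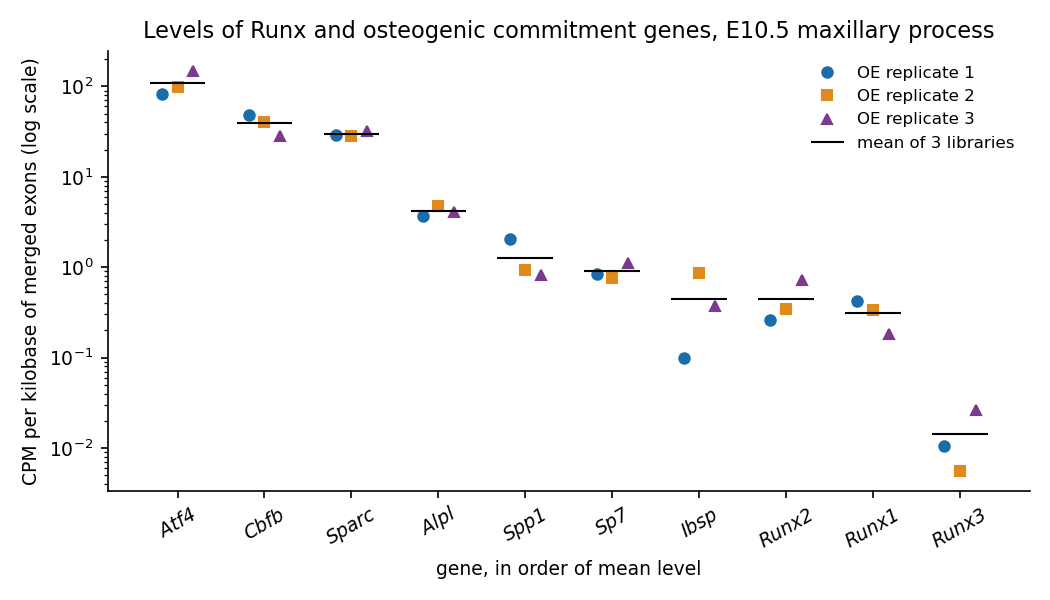
Level of each gene as CPM per kilobase of merged exons (log scale) in OE replicates 1, 2 and 3, with black bars for the mean. *Atf4*, *Cbfb* and *Sparc* lie above 28 in every library, *Alpl* between 3.65 and 4.79, and *Runx3* at or below 0.0265.

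*Runx2* and *Runx1* stood at similar mean levels, yet their order differed between libraries. *Runx2* (ENSMUSG00000039153, chromosome 17, 44495987 to 44814797, minus strand) had 88, 109 and 242 counts in replicates 1, 2 and 3, or 2.28, 3.06 and 6.42 CPM. Replicates 1 and 2 were close and replicate 3 was 2.82-fold above the lowest. *Runx1* (ENSMUSG00000022952, chromosome 16, 92601466 to 92826149, minus strand), best known for its part in blood cell formation and also active in epithelia and sensory neurons, had 194, 143 and 82 counts, or 5.03, 4.02 and 2.18 CPM. It was lowest in replicate 3, the library where *Runx2* was highest.
As shares of the summed Runx level per kilobase, *Runx2* made up 37.6%, 50.5% and 77.8% in replicates 1, 2 and 3, and *Runx1* 60.9%, 48.7% and 19.4%. The *Runx2* to *Runx1* ratio was thus 0.617, 1.04 and 4.02. With coding length in place of merged exons the share of *Runx2* was 25.7%, 36.8% and 68.0%, so *Runx1* was then the larger in replicate 2, while replicate 3 kept more *Runx2* than *Runx1*. Averaged over the libraries, *Runx2* made up 55.3% ± 20.5 and *Runx1* 43.0% ± 21.3 (SD, n = 3), a difference smaller than the spread, and with coding length or without replicate 3 *Runx1* had the larger mean share (55.4% and 54.8%). The summed level itself was 0.686, 0.686 and 0.934 CPM per kilobase.
*Runx3* (ENSMUSG00000070691, chromosome 4, 135120652 to 135177990, plus strand), known from sensory neurons and lymphocytes, had 2, 1 and 5 counts. The exact Poisson 95% interval in the highest library, replicate 3, ran from 1.62 to 11.7 counts, and the intervals of the 3 libraries overlapped. Such intervals cover counting error only. Its share of the family was 1.51%, 0.818% and 2.84%.

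*Cbfb* (ENSMUSG00000031885, chromosome 8, 105170674 to 105217989, plus strand) stood above the factors it pairs with in every library. It had 6493, 5028 and 3696 counts, or 168, 141 and 98.1 CPM, highest in replicate 1 and lowest in replicate 3. Per kilobase its level was 70.4, 59.2 and 30.2 times the summed level of the 3 Runx genes. These are ratios of RNA and say nothing of protein.

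**Figure D2:**
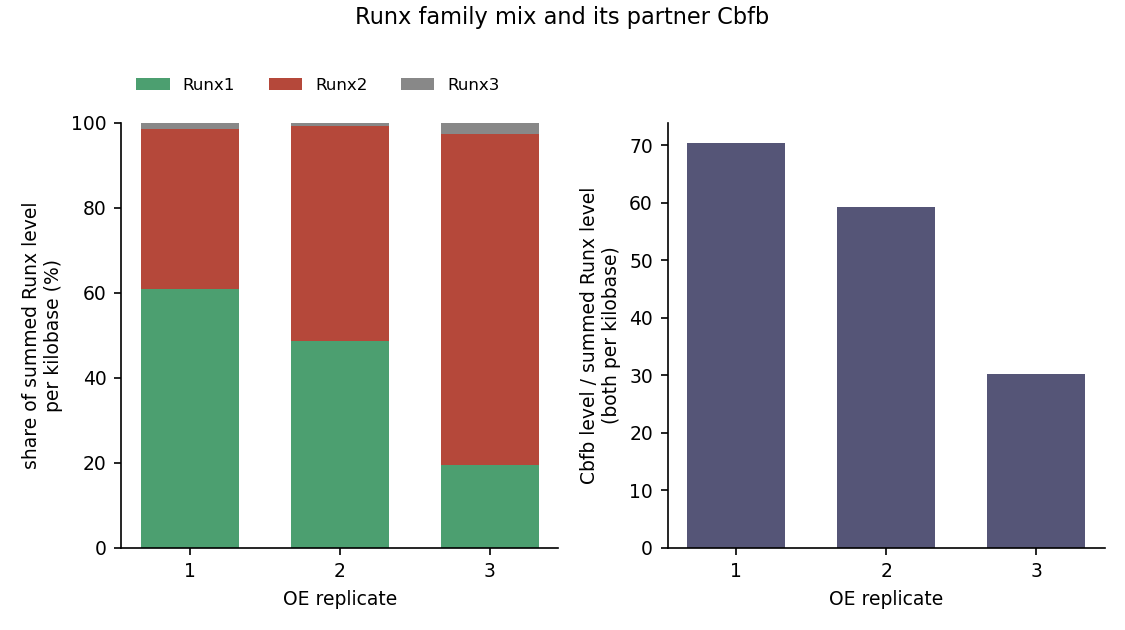
Left, share (%) of *Runx1*, *Runx2* and *Runx3* in their summed level per kilobase of merged exons in each OE replicate; right, the level of *Cbfb* divided by that sum. *Runx2* takes 37.6% in replicate 1 and 77.8% in replicate 3, and the *Cbfb* ratio runs from 70.4 to 30.2.

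*Sp7* (ENSMUSG00000060284, chromosome 15, 102356606 to 102367182, minus strand) was detected in every library. It had 110, 91 and 142 counts, or 2.85, 2.56 and 3.77 CPM. Per kilobase it stood at 3.25, 2.17 and 1.53 times *Runx2* in replicates 1, 2 and 3. These ratios rest on merged exons of 3398 bp for *Sp7* and 8837 bp for *Runx2*. With their coding lengths, 1284 and 1859 bp, the ratios would be smaller, and *Runx2* would be the higher in replicate 3. *Atf4* (ENSMUSG00000042406, chromosome 15, 80255184 to 80257541, plus strand) had 7501, 8240 and 13209 counts, or 194, 232 and 351 CPM. Replicate 3 was 1.80-fold above replicate 1.

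Among the matrix and mineral genes, *Sparc* and *Alpl* were even across the libraries and *Spp1* and *Ibsp* were not. *Sparc* (ENSMUSG00000018593, chromosome 11, 55394500 to 55423183, minus strand) had 4197, 3857 and 4533 counts, or 109, 108 and 120 CPM, a range of 1.11-fold that 93.9% of all genes tested matched or exceeded. *Alpl* (ENSMUSG00000028766, chromosome 4, 137741733 to 137796384, minus strand) had 568, 687 and 622 counts, or 14.7, 19.3 and 16.5 CPM. Of the other alkaline phosphatases, *Alpi* and *Alppl2* had 0 counts in all libraries, which allows up to 0.0843 CPM in the library with the highest limit (3 counts), and *Akp3* had at most 1.
*Spp1* (ENSMUSG00000029304, chromosome 5, 104435118 to 104441050, plus strand), a phosphoprotein of bone that macrophages also secrete, had 131, 54 and 51 counts, or 3.39, 1.52 and 1.35 CPM. Replicate 1 was 2.51-fold above replicate 3, and replicates 2 and 3 were close. *Ibsp* (ENSMUSG00000029306, chromosome 5, 104299171 to 104311469, plus strand), which nucleates mineral in bone, had 8, 64 and 29 counts, or 0.207, 1.80 and 0.770 CPM. Its lowest library was the one where *Spp1* was highest. The 8 counts of replicate 1 carry an exact Poisson 95% interval of 3.45 to 15.8, or 0.0895 to 0.408 CPM, which holds neither of the other libraries' levels.
*Ibsp* and *Spp1* lie in the same cluster of acidic bone and tooth phosphoproteins on chromosome 5, together with *Dspp*, *Dmp1* and *Mepe*. *Mepe* had 0 counts in every library, and *Dspp* and *Dmp1* 1 count each, in replicate 1. The ratio of *Spp1* to *Ibsp* per kilobase was 20.5, 1.06 and 2.21 in replicates 1, 2 and 3.

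The spread of each gene between the OE replicates was then set against counting noise and against all genes. For this, 17115 genes were kept whose counts averaged 10 or more, and the counts of the 3 libraries were compared with those expected from the scaled library sizes (chi-square test, 2 degrees of freedom, Benjamini-Hochberg adjustment). This test compares the libraries, not conditions, and 81.5% of all genes passed it at an adjusted p under 0.05. All 9 members with enough counts passed as well, which is close to that background, and *Runx3* was too low to be tested. Of the 9, *Runx1*, *Cbfb* and *Spp1* were highest in replicate 1, *Alpl* and *Ibsp* in replicate 2, and *Runx2*, *Sp7*, *Sparc* and *Atf4* in replicate 3, where these libraries were the highest for 39.6%, 17.2% and 43.2% of all genes tested. The adjusted p was 1.47e-20 for *Runx2*, 1.24e-09 for *Runx1*, 1.78e-10 for *Spp1*, 6.55e-12 for *Ibsp* and 1.05e-02 for *Sp7*.
A ratio of at least 2 between the highest and the lowest library was found in 34.8% of all genes tested and in 4 of the 9 members, *Runx1*, *Runx2*, *Spp1* and *Ibsp*, a share near that background. The ratio of *Ibsp*, 8.67, was matched or exceeded by 2.47% of all genes tested. The corresponding shares were 15.7% for *Runx2*, 20.4% for *Spp1* and 25.0% for *Runx1*, and the median gene had a ratio of 1.69. The biological coefficient of variation, the relative SD beyond counting error, was 0.906 for *Ibsp* where the edgeR trend at its abundance was 0.514, and 0.522 for *Runx2* against 0.436. That of *Spp1*, 0.492, lay near its trend of 0.478. *Alpl* (0.130 against 0.325), *Sp7* (0.179 against 0.453) and *Sparc* (0.0579 against 0.273) lay below the trend, as most genes did. In all, 31.7% of genes tested and 4 of the 9 members, the other being *Atf4* (0.303 against 0.276), were above the trend.
Gene length and GC content moved with some of these ratios. With a smooth trend on both removed from each library, the ratio of *Runx1* went from 2.31 to 1.42 and that of *Runx2* from 2.82 to 3.71. The ratios of *Spp1* and *Ibsp* were then 2.57 and 8.45, and 24.7% of all genes tested were past 2-fold. *Sp7* and *Sparc* no longer passed the chi-square test (adjusted p = 2.58e-01 and 2.03e-01).
Without replicate 3, the counts of *Runx1* and *Runx2* in replicates 1 and 2 differed by 1.25-fold and 1.34-fold and did not pass (adjusted p = 7.91e-02 and 7.44e-02, chi-square test), and neither did *Sp7* and *Sparc*. Without replicate 1, *Spp1* differed by 1.12-fold (adjusted p = 6.10e-01, chi-square test) and the ratio of *Ibsp* was 2.34. *Runx2* and *Ibsp* were then the 2 members past 2-fold, beside 18.3% of all genes tested. Without replicate 2, *Alpl* did not pass (adjusted p = 6.26e-02, chi-square test), the ratio of *Ibsp* was 3.71, and 4 members were past 2-fold, beside 31.2% of all genes tested. Without replicate 3, *Spp1* and *Ibsp* were, beside 7.24%.

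**Figure D3:**
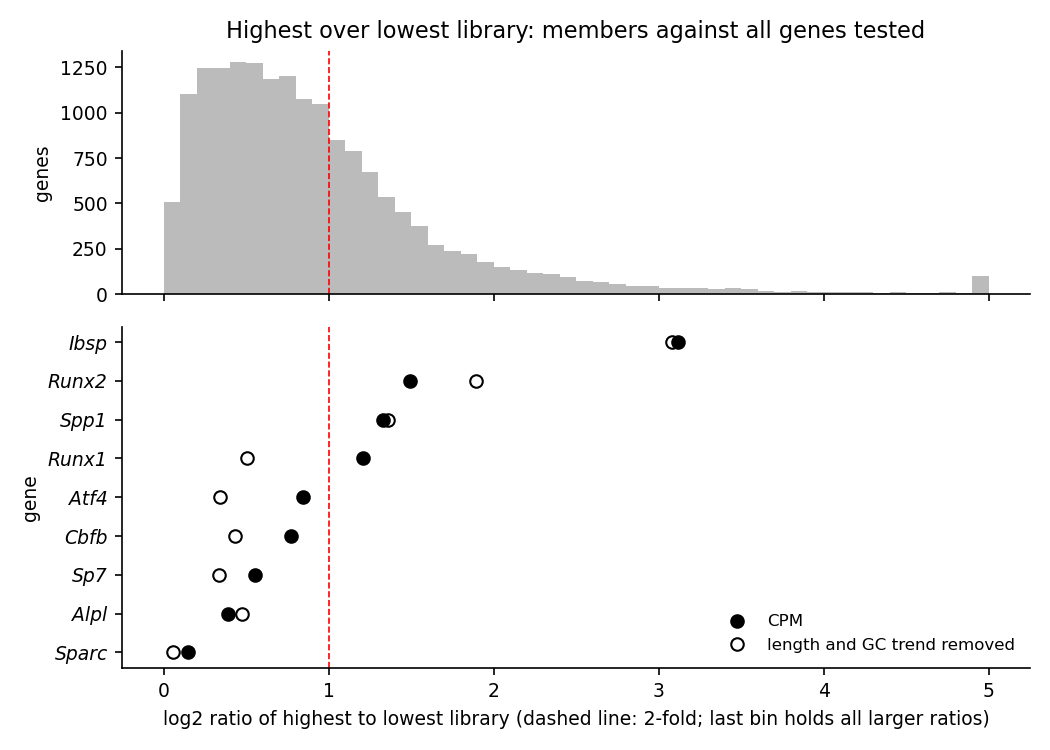
Top, histogram of the log2 ratio of the highest to the lowest library over the 17115 genes tested, the last bin holding all larger ratios; bottom, the same ratio for the 9 members tested, as CPM (filled) and with the trend on length and GC content removed (open). *Ibsp* (8.67-fold) lies in the right tail, *Runx2*, *Spp1* and *Runx1* lie just past the dashed line at 2-fold, and *Runx1* falls to 1.42 with the trend removed.

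Markers of other cell types also differed between the libraries. In bulk tissue, fewer cells of a type and less RNA per cell cannot be told apart. Beside *Runx1*, highest in replicate 1, the 12 sensory neuron markers summed to 376, 27.7 and 40.2 CPM in replicates 1, 2 and 3, with all 12 highest in replicate 1 and none at 0. *Tubb3*, *Nefm* and *Isl1* led them. The 8 epithelium markers, led by *Krt18*, *Krt8* and *Epcam*, summed to 403, 263 and 261 CPM, with 5 highest in replicate 1 and 3, including *Krt18* (86.7, 65.5 and 108), highest in replicate 3. The sensory neuron sum was lowest in replicate 2, whereas *Runx1* was lowest in replicate 3. Sums of the macrophage, megakaryocyte and erythroid lists, given below, were lowest in replicate 1, where *Runx1* was highest. The part of any of these cell types in the level of *Runx1* was not tested.
Beside *Runx2*, highest in replicate 3, the 9 optic and pigment markers, led by *Trpm1*, *Pmel* and *Six6*, summed to 11.2, 92.2 and 225 CPM. Of these, 8 of 9 were highest in replicate 3, and *Tyr* and *Tyrp1* were at 0 in replicate 1. The 6 muscle markers, led by *Des*, *Tnnt1* and *Actc1*, summed to 33.0, 28.1 and 73.8 CPM. Most of this was *Des* (20.6, 22.2 and 58.2 CPM); 4 of the 6 were highest in replicate 3, and *Actc1* (5.42, 0.506 and 1.62) and *Myf5* (3.14, 0.450 and 2.12) in replicate 1. Sums of the facial mesenchyme, macrophage and erythroid lists were also highest in replicate 3, at 3097, 60.4 and 4942 CPM. The part of any of these cell types in the level of *Runx2* was not tested.
Beside *Spp1*, highest in replicate 1, the sensory neuron and epithelium sums given above were also highest there. The 10 macrophage markers summed to 39.0, 47.3 and 60.4 CPM, led by *Csf1r* (9.17, 11.7 and 11.6 CPM), *Cd68* and *C1qb*, and none was at 0. By CPM, 2 were highest in replicate 1, *Mrc1* (4.90, 2.08 and 1.67 CPM) and *Ptprc* (2.49, 1.69 and 0.903), 2 in replicate 2 and 6 in replicate 3. Of the 10, 8 were past 2-fold, but 2 with the trend on length and GC content removed, when the ratio of *Ptprc* went from 2.76 to 1.37 and that of *C1qb* from 3.00 to 1.56. Their part in the level of *Spp1* was not tested.
Beside *Ibsp*, highest in replicate 2 and lowest in replicate 1, the 6 megakaryocyte markers summed to 11.8, 34.8 and 27.9 CPM, led by *Itga2b* (7.51, 21.6 and 15.4), *Pf4* and *Ppbp*, with *Gp1bb* at 0 in every library. Of the 5 tested, 4 were highest in replicate 2. The 5 osteoclast markers summed to 8.89, 15.5 and 11.4 CPM, of which *Acp5* gave 6.01, 13.2 and 6.66, while *Dcstamp* was at 0 throughout. *Ctsk* (2.46, 2.16 and 3.85 CPM) and *Ocstamp* (0.285, 0.140 and 0.876) were instead lowest in replicate 2 and highest in replicate 3. The 9 erythroid markers, led by *Hbb-y*, *Hba-x* and *Hbb-bh1*, summed to 2147, 4015 and 4942 CPM, with 5 highest in replicate 2 and 4 in replicate 3. Their part in the level of *Ibsp* was not tested. The 8 endothelial markers, led by *Cdh5*, *Kdr* and *Tie1*, summed to 335, 376 and 320 CPM, of which *Kdr* gave 77.6, 84.1 and 37.3 and *Cldn5* 25.5, 28.7 and 52.2. The ratios of *Kdr* and *Cldn5*, 2.26 and 2.05, were 1.80 and 1.11 with the trend removed.

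**Figure D4:**
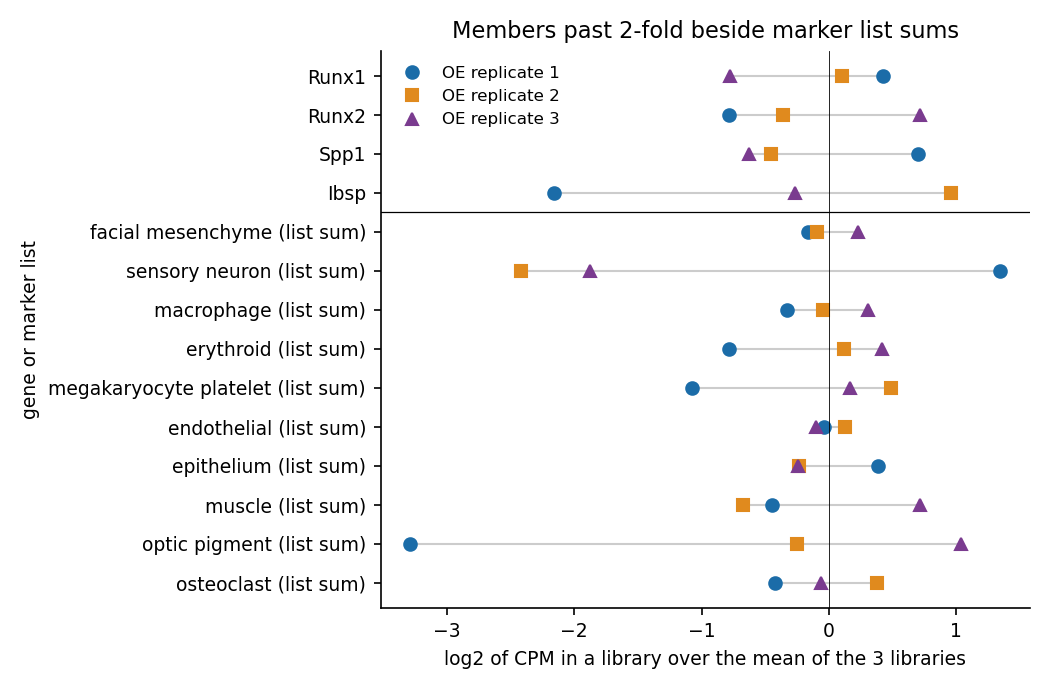
Log2 of the CPM in each OE replicate over the mean of the 3 replicates, for the 4 members with a ratio of at least 2 (above the line) and for the summed CPM of each marker list (below it). *Ibsp* and the megakaryocyte sum are highest in replicate 2 and lowest in replicate 1, as is the osteoclast sum through *Acp5*. *Runx2* is highest in replicate 3, as are the optic and pigment, muscle, facial mesenchyme, macrophage and erythroid sums.

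Other genes of the pathway were counted from lists. All 17 Runx cofactors reached 1 CPM in each library, beside 45.3% of all genes with a count, and 4 were past 2-fold, beside 34.8% of all genes tested. The corepressor *Tle3* was at 215, 205 and 167 CPM and the coactivator *Yap1* at 349, 293 and 201. *Aes*, a short relative of the TLE corepressors, gave the largest ratio of this list, at 97.2, 184 and 473 CPM, and *Ep300*, a histone acetyltransferase, went the other way at 95.9, 77.3 and 32.6. With the trend on length and GC content removed, their ratios went from 4.87 to 3.63 and from 2.94 to 2.11, and 2 cofactors were past 2-fold, beside 24.7% of all genes.
Of 16 skeletal regulators, 7 were past 2-fold, beside 34.8% of all genes. In replicate 3, 9 were highest, beside 43.2%, and in replicate 1, 6 were, beside 39.6%. The mesenchymal factors *Prrx1* (629, 582 and 419 CPM), *Twist1* (317, 342 and 464) and *Msx1* (193, 218 and 277) led the list. *Pth1r*, the parathyroid hormone receptor, was at 62.2, 97.0 and 221 CPM, and *Bmp2* at 3.21, 1.83 and 0.982. *Twist2* (3.76, 5.03 and 11 CPM) and *Dlx5* (6.63, 6.12 and 13.1), named only after their values were seen, restrain and promote osteoblast formation respectively. Both were highest in replicate 3, the library where *Runx2* was highest. With the trend on length and GC content removed, their ratios went from 2.93 to 2.54 and from 2.15 to 1.65. Without replicate 3, none of the 16 was past 2-fold, where 7.24% of all genes were. With the trend removed 4 were, beside 24.7%.
Of 18 further genes of bone matrix and mineral, 9 reached 1 CPM in each library, beside 45.3% of all genes with a count. Of the 14 that could be tested 7 were past 2-fold, beside 34.8% of all genes. *Serpinh1*, the collagen chaperone, was at 776, 743 and 730 CPM, *Col1a2* at 172, 220 and 248 and *Slc20a1*, a phosphate transporter, at 72.2, 80.7 and 101. *Col1a1*, a name added once its values were known, stood at 25.6, 19.2 and 61.4 CPM. *Bglap* (osteocalcin), a marker of mature osteoblasts, had 8, 20 and 56 counts and *Omd* (osteomodulin) 7, 22 and 45, the largest ratios of this list (7.17 and 6.59). With the trend removed these were 3.45 and 7.69, and *Sost* (4.06) then exceeded *Bglap*. *Bglap* has near-identical copies, *Bglap2* with at most 1 count and *Bglap3* with at most 11, so how reads were split among them is uncertain.
In the SPARC family, mean levels were 190 CPM for *Fstl1*, 50.8 for *Smoc1*, 11.9 for *Sparcl1* and 6.46 for *Spock2*, with *Smoc2*, *Spock1* and *Spock3* between 1.02 and 1.91. *Sparc* had the smallest ratio of the 8, and 5 of 8 were past 2-fold, beside 34.8% of all genes. *Smoc1* was highest in replicate 3, at 33.1, 37.5 and 81.7 CPM, and *Spock2* in replicate 1, at 12.3, 3.85 and 3.24.
Of 17 targets of ATF4 in amino acid synthesis and the stress response, 16 reached 1 CPM in each library, beside 45.3% of all genes with a count. Beside 34.8% of all genes, 2 of them were past 2-fold, *Trib3* (2.18, 1.29 and 4.49 CPM) and *Ddit3* (4.33, 5.39 and 12.7). Both were highest in replicate 3, as *Atf4* was, and so were 10 of the 17, beside 43.2% of all genes. *Phgdh* and *Psat1*, enzymes of serine synthesis, were at 368, 404 and 613 CPM and at 247, 233 and 182 CPM, with ratios of 1.66 and 1.35 in opposite directions, or 1.13 and 1.18 with the trend removed. *Aars*, the alanyl-tRNA synthetase, was at 243, 274 and 349. With the trend removed, the ratio of *Atf4* went from 1.80 to 1.27, and 6 targets were past 2-fold, beside 24.7% of all genes.
Of 8 genes that set ATF4 through eIF2 or phosphorylate it, 6 were highest in replicate 1, beside 39.6% of all genes, and 1 was past 2-fold, beside 34.8%. This was *Rps6ka3*, which encodes the kinase RSK2, at 117, 86.2 and 39.1 CPM, with a ratio of 2.99, or 1.72 with the trend removed. *Ppp1r15b* (102, 83.7 and 63.8 CPM) and *Eif2ak4* (57.1, 51.9 and 31.4) were also highest in replicate 1. *Eif2s1* (208, 219 and 159) was highest in replicate 2 and *Ppp1r15a* (18.5, 18.6 and 29.3) in replicate 3.

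**Figure D5:**
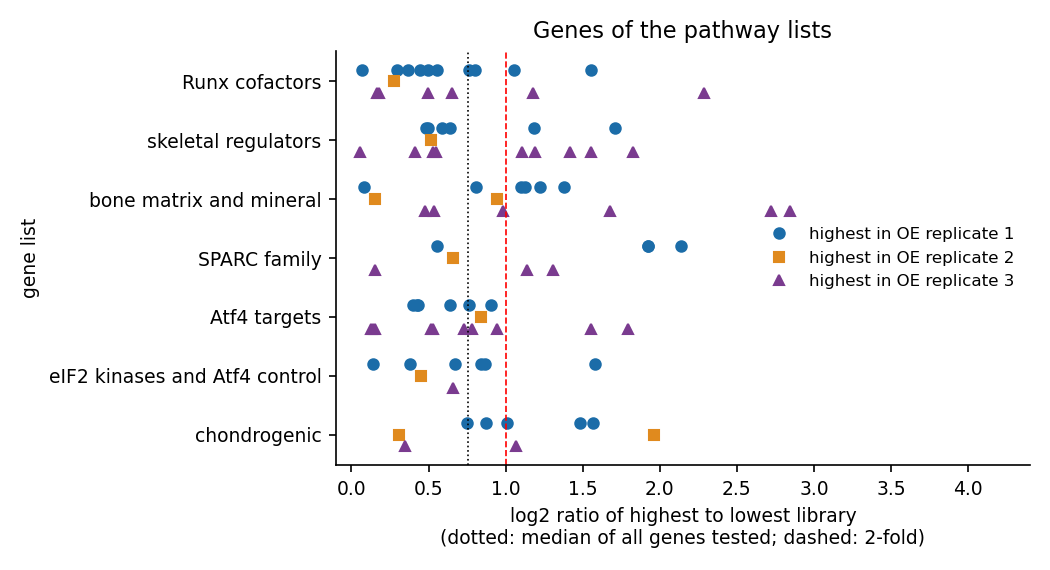
Log2 ratio of the highest to the lowest library for each tested gene of 7 lists, with marker shape and colour for the library in which the gene was highest. The dotted line is the median of all genes tested (1.69-fold) and the dashed line 2-fold; *Bglap* and *Omd* lie farthest right in the bone matrix list and *Aes* among the cofactors.

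Exon sharing with other annotated genes touched 3 members. Of the merged exons of *Runx2*, 519 bp (5.87%) lie opposite exons of the antisense gene *Runx2os1*, which had 0, 0 and 1 counts. *Runx1* shares 106 bp with the antisense gene *Gm26626* and *Spp1* 309 bp (18.8%) with *Gm42793* on its own strand, with at most 2 and 1 counts. *Runx2os2* and *Runx2os3* had at most 1 and 0 counts. The strand setting of the counting is not given in the sources used here, so reads in the stretches shared with antisense genes cannot be assigned to a strand. In the stretch that *Spp1* shares on its own strand, reads may have been set aside as overlapping more than 1 gene, a class that held 6.11%, 6.10% and 6.96% of counted reads in replicates 1, 2 and 3.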

How the data were processed

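RNA-Seq was analysed for 3 E10.5 OE libraries. The authors aligned the read pairs with STAR 2.7.3a (mm10 genome) and deposited raw counts per gene, as whole numbers without normalization; the submitters' processing notes also name HTSeq 0.12.4 and FastQC. Strand setting and annotation release are not given in the sources used here. Rows that name no gene held 14.2%, 15.7% and 16.4% of counted reads and were left out. Identifiers were matched to GENCODE M21 (GRCm38) without version: 55141 of 55401 matched, and the lowest identifier was kept for a repeated symbol. CPM used edgeR 4.0.16 TMM factors of 1.06, 1.01 and 0.940, and dispersions an intercept-only edgeR model without shrinkage. A gene at 0 allows up to 3 counts, or 0.0777, 0.0843 and 0.0796 CPM, for counting error only. A trend on merged exonic length and GC content of the longest transcript was fitted to log2 CPM (prior count 2) with mgcv 1.9.3. DESeq2 1.42.0 size factors and totals were alternative scalings. R 4.3.3, Python 3.11.15, scipy 1.17.1 and pandas 2.3.3 were used, and the steps were tested on simulated data. In ratios, 0 counts stood at 3.

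With 1 group, no test between groups was made. The labels call the RNA samples independent without naming separate embryos or litters. The p-values therefore measure only the spread between these samples, whose biological and technical parts cannot be told apart. The members and lists were chosen with earlier results of these data known. Genes named were all members, the 3 of highest mean CPM and the 2 of largest ratio (mean count of at least 10) of each pathway list, the SPARC, phosphoprotein and phosphatase families in full, the 3 of highest mean CPM of each marker list, genes sharing exons with members, *Dlx2* and *Xist*. *Twist2*, *Dlx5*, *Col1a1*, *Bglap2*, *Bglap3*, *Sost*, *Cldn5*, *Mrc1*, *Ptprc*, *Myf5*, *Ppp1r15a*, *Acan*, *Matn1*, the Runx2 antisense genes without shared exons, *Gm16225*, *Tyr*, *Tyrp1*, *Gp1bb* and *Dcstamp* were named after their values were seen. The results of 1 further marker list and of 1 marker of another list are not reported here.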

Additional observations from a re-analysis of the deposited data

How the results depend on the processing

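Of 198 alternative values over 38 results, 173 stayed within 1.5 times a count or within 1 SD of a level and 25 moved. Leaving out 1 of 3 libraries shifts a mean by less than 1 SD whatever the values are, bar small changes in scaling. For levels, Runx shares and the *Cbfb* ratio, staying within 1 SD in those settings was thus fixed in advance and says nothing of stability. The order of genes turned in some settings. The mean share of *Runx2* in the Runx sum was 55.3% against 43.0% for *Runx1*. It was 44.0% against 54.8% without replicate 3, 43.5% against 55.4% with coding length and 46.8% against 51.8% with the longest transcript. Leaving out 1 replicate, 5 to 8 members differed beyond counting noise (5 without replicate 3) and 2 to 4 were past 2-fold (2 without replicate 1 or without replicate 3). Without replicates 1, 2 and 3, 18.3%, 31.2% and 7.24% of all genes tested were past 2-fold and 71.2%, 77.7% and 48.8% beyond counting noise. In the same settings, the number past 2-fold ran from 0 to 4 for the Runx cofactors, 0 to 6 for the skeletal regulators, 2 to 7 for bone matrix and mineral, 1 to 2 for the phosphoprotein cluster, 3 to 4 for the SPARC family, 0 to 2 for the ATF4 targets, 0 to 1 for ATF4 control and 1 to 3 for the chondrogenic genes. The number beyond counting noise ran from 1 to 2 for the phosphoprotein cluster, 5 to 7 for the SPARC family, 0 to 1 for the alkaline phosphatases and 4 to 8 for ATF4 control. With 1 CPM added to each library, 2 members were past 2-fold, beside 18.0% of all genes tested. With raw totals, 3 genes of ATF4 control were, beside 36.7%. The summed Runx level was 4.78 per kilobase of coding length and 1.26 per kilobase of the longest transcript, by construction of a shorter length. With the longest transcript, 6 of 10 members kept their rank, and *Sparc* (rank 2) stood above *Cbfb* (rank 3).

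No paired analysis was possible because all libraries belong to 1 group. Counting error limits *Runx3* in every library and *Ibsp* in replicate 1, and 3 libraries give a rough SD.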

Other observations

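Most of the listed genes of cartilage, the other skeletal tissue that neural crest mesenchyme forms, were detected too. *Col2a1*, the main cartilage collagen, was at 896, 1043 and 1140 CPM in replicates 1, 2 and 3, *Col9a1* at 100, 125 and 102, and *Col11a1* at 51.8, 48.3 and 30.8. Of 10 chondrogenic genes, 7 reached 1 CPM in each library, beside 45.3% of all genes with a count, and 5 of the 9 tested were past 2-fold, beside 34.8% of all genes. *Hapln1*, a link protein of cartilage matrix, was at 52.5, 35.1 and 17.7 CPM, with a ratio of 2.96, or 1.87 with the trend on length and GC content removed. *Comp* had 5, 18 and 13 counts. Low as well were *Acan* (20, 17 and 7 counts) and *Matn1* (1, 2 and 1), of the same list and named after their values were seen. With the trend removed, 2 of the 9 were past 2-fold, beside 24.7% of all genes.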
